A study of Mus musculus with 1248 samples.

Results

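Plau, Plaur, Plat, Serpine2, Serpinb2, Procr and Anxa2, which act in or beside the plasminogen activation system, were followed through a study of bone metastasis in mouse mammary carcinoma cells. They were taken by symbol, and all 7 were found among the 40756 genes of the count table. Single cells of the lines 4T1 and 4T1.2, carrying Firefly-luciferase and mCherry, had been sorted for mCherry into 96-well plates and sequenced by Smart-seq2, a method that reads whole polyadenylated transcripts. Female BALB/c mice received the cells by intracardiac injection, and tumour cells were recovered from the bone of the hindlimbs. These bone groups were 4T1 on day 4 (early seeding), day 10 (progression) and day 16 (late stage), and 4T1.2 on day 4. The other groups were 4T1 primary tumour cells of the mammary fat pad, labelled day 22, and both lines grown in culture. The labels name no animal, culture or plate for a well. Each group was therefore taken as 1 sample, no test between groups was made, and the wells are not replicates.

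Of 1248 wells, 1218 passed a filter of at least 1000 detected genes, at least 50000 counts and at most 25% mitochondrial counts. Median totals per group lay between 2647150 and 3054740 counts, and single wells held between 58509 and 34104400. A well was called tumour where Krt8 plus Krt18 exceeded the sum of the blood cell genes Ptprc, Coro1a, Laptm5 and Rac2 in CPM, the counts of a gene scaled to a common total per well, and host otherwise. This gave 501 tumour and 717 host wells, and 64.5% of the 1111 wells from animals were host although all had been sorted as mCherry-positive. In the order 4T1 bone day 4, day 10 and day 16, 4T1 fat pad and 4T1.2 bone day 4, tumour wells numbered 137, 54, 71, 85 and 47, against 359, 41, 119, 10 and 188 host wells. All 54 wells of 4T1 culture and all 53 of 4T1.2 culture were tumour wells. Of 5 epithelial markers, Krt7, which the division of the wells did not use, was at least 256 CPM in the tumour wells of every group, while Epcam and Krt19 were between 0.02 and 1.25 CPM in both 4T1.2 groups. The keratin and blood cell sums were less than 10-fold apart in 52 tumour wells, 25 of them among the 47 of 4T1.2 bone day 4.

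Plasminogen is a circulating zymogen that becomes plasmin, a protease that dissolves fibrin and breaks down matrix proteins. It is cleaved by urokinase (Plau) and by tissue-type activator (Plat). Plaur is the surface receptor that holds urokinase at the cell, and annexin A2, in complex with S100a10, is a surface docking protein for Plat and plasminogen. Serpine2 (protease nexin 1) and Serpinb2 (plasminogen activator inhibitor 2) are serpins, inhibitors that trap the activators. Procr, the endothelial protein C receptor, belongs to the neighbouring anticoagulant pathway and is also known as a marker of mammary stem-like cells. Urokinase and its receptor are known for their part in tumour invasion.

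The genes lie apart from each other, and only Serpine2 and Serpinb2 share a chromosome, at distant positions of chromosome 1. In GENCODE M21 on mm10 (GRCm38), Plau spans chr14:20836660-20843385 (+), Plaur chr7:24462484-24475968 (+), Plat chr8:22757727-22782844 (+), Procr chr2:155751117-155755471 (+), Anxa2 chr9:69453620-69491795 (+), Serpine2 chr1:79794197-79861180 (-) and Serpinb2 chr1:107511423-107535478 (+). All are annotated as protein-coding. The end of Serpinb2 overlaps Serpinb10 on the same strand, and Anxa2 holds Mir3109 on the same strand and Gm16144 on the other, and with the counting strand not given in these sources, reads in those stretches cannot be told apart.

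RefSeq promoter windows of 300 bases, 250 before and 50 after the transcription start in GRCm38.p6, were matched for 5 of the 7 genes, all but Plau and Plat. The letters TGACTCA, the core that AP-1 factors bind, were searched on both strands (TGAGTCA on the other). They occurred in the windows of Plaur, Procr and Anxa2 and in 5.20% of 32851 windows of all genes. These 3 are shown 5′ to 3′ because they are the windows with the match and belong to genes found in many tumour wells. Capitals mark the match. The window of Plaur is chr7:24462233-24462532 (+), that of Procr chr2:155750967-155751266 (+) and that of Anxa2 chr9:69453433-69453732 (+).
Plaur: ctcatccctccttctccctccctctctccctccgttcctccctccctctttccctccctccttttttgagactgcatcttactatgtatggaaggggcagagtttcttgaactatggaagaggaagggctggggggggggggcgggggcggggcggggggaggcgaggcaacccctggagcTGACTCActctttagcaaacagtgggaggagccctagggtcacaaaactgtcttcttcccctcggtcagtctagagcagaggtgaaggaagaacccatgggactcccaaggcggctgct
Procr: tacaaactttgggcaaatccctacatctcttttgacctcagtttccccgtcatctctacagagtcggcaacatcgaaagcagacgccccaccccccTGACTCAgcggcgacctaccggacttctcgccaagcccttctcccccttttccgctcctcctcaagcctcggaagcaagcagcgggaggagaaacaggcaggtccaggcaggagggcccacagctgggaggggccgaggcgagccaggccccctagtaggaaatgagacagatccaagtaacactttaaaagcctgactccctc
Anxa2: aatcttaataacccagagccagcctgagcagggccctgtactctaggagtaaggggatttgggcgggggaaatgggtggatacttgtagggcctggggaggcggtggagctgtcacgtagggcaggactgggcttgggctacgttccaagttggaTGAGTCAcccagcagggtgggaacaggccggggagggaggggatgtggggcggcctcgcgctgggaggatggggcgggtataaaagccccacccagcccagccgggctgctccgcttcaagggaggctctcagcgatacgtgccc
The match begins at base -69 from the start in Plaur, -154 in Procr and -95 in Anxa2. It is a match of letters only, and none was found in the windows of Serpine2 and Serpinb2.

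Across tumour wells the 7 genes fell into constant, graded and sparse patterns, as the plot of single wells shows. Levels are summed counts of a group as CPM. Anxa2 was high in almost every well, Plaur was present in most, Plau and Procr were present in part of the wells, and Plat, Serpine2 and Serpinb2 were carried by a minority in most groups. Per kilobase of exon, 4T1 bone day 4 tumour wells held 809 CPM of Anxa2, 169 of Plaur, 31.9 of Plau and 29.4 of Procr, against 2.01 of Plat, 1.57 of Serpine2 and 0.04 of Serpinb2. In 4T1.2 culture the order on the same scale was Plau at 434, Anxa2 at 326, Plaur at 231 and Procr at 219 CPM per kilobase.

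**Figure D1:**
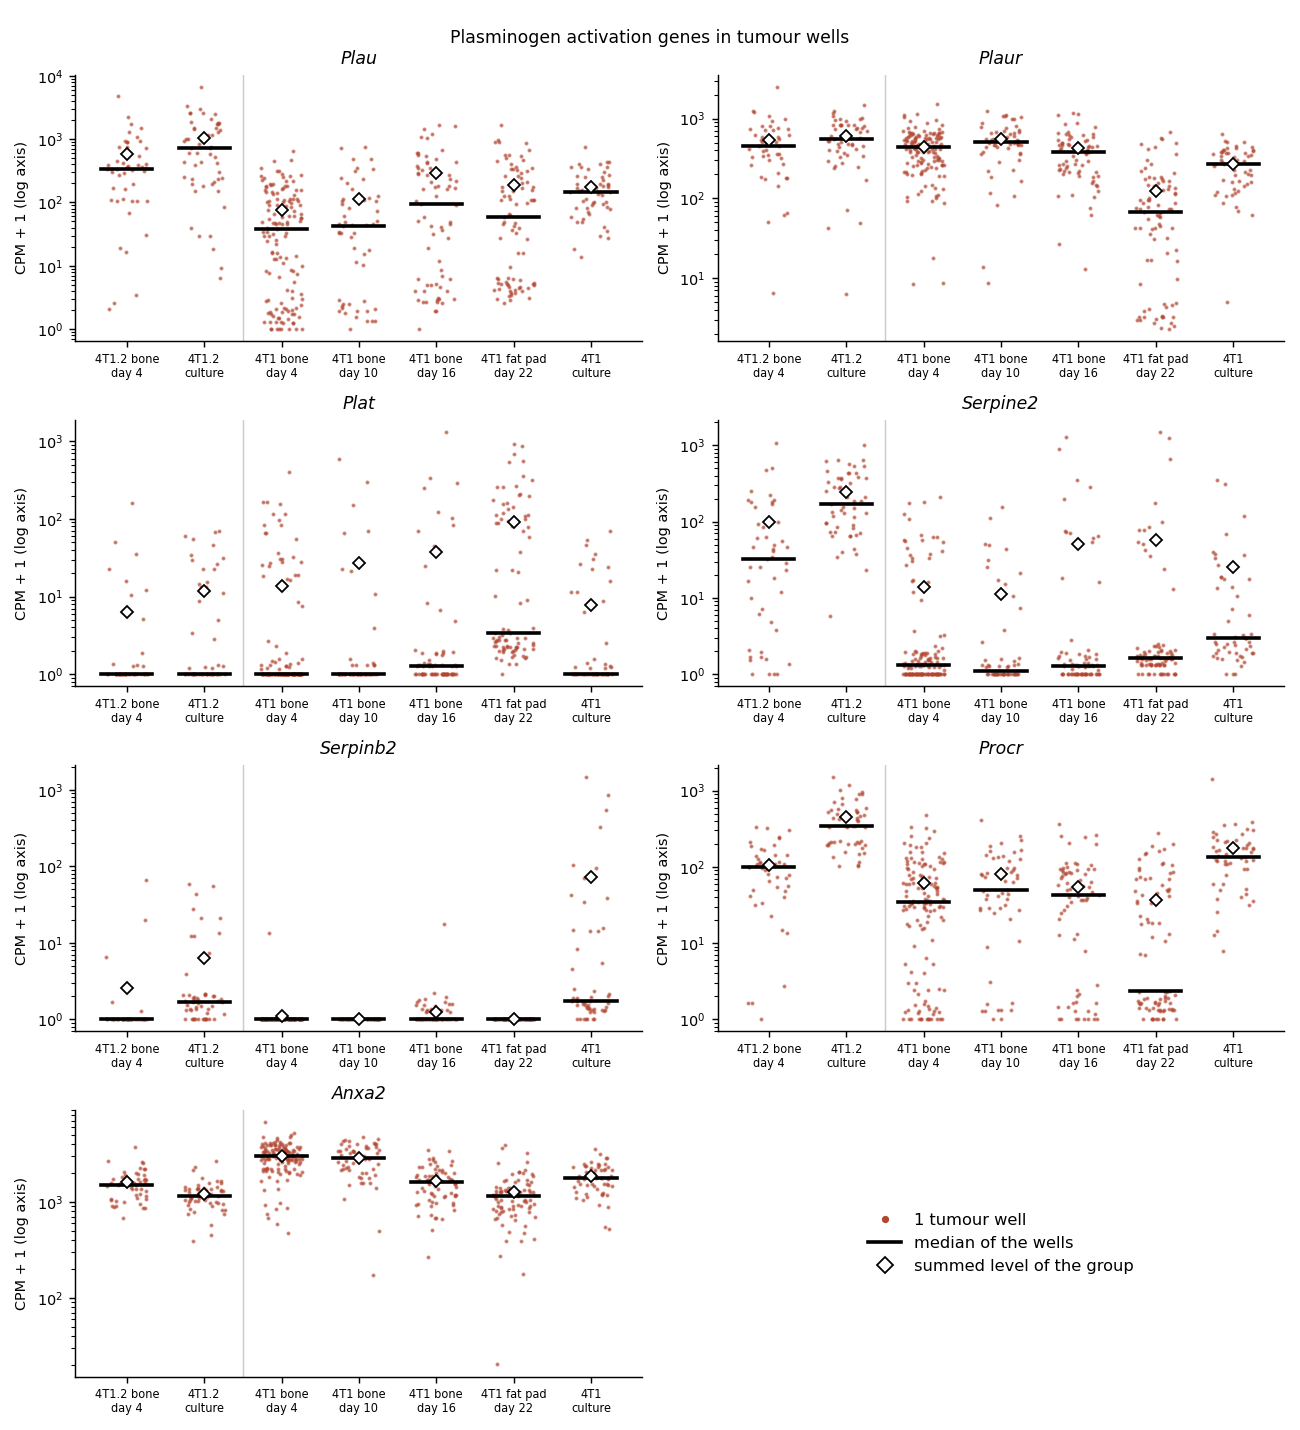
Each point is 1 tumour well, by group on the x axis and as CPM + 1 on a log y axis; bars are medians over wells and diamonds the summed level of the group. Serpinb2 stood above 20 CPM in 10 of 54 wells of 4T1 culture and in none of the 4T1 wells from animals, whereas Anxa2 was high in nearly all wells.

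Plau, the urokinase, was higher in 4T1.2 than in 4T1 cells at both sites where the lines can be compared, and within 4T1 bone it was highest on day 16. In 4T1.2 its level was 575 CPM in bone day 4 and 1027 CPM in culture. In 4T1 it was 75.5, 112 and 296 CPM in bone on days 4, 10 and 16, 187 CPM in the fat pad and 172 CPM in culture. The median tumour well of 4T1.2 held 339 CPM in bone and 728 CPM in culture, and that of 4T1 held 37.2, 42.1 and 94.0 CPM in bone on days 4, 10 and 16, 57.3 CPM in the fat pad and 147 CPM in culture. The 4T1.2 bone wells thus stood above the 4T1 bone wells of day 4 by median as well as by sum. Counting intervals are narrow, for example 74.7 to 76.3 CPM for the 4T1 day 4 sum (exact Poisson 95% interval). Amplified reads without molecular identifiers are not independent molecules, so such intervals can understate even the counting error. The binomial intervals of shares treat the wells of a group as independent draws. Neither kind covers differences between animals or cultures.

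Within 4T1 the share of wells with Plau was alike in the animals and higher in culture, whereas the level in the wells that had it was highest on day 16. At least 20 CPM was found in 79 of 137 wells (57.7%, exact binomial 95% interval 48.9 to 66.1) on day 4, in 61.1% on day 10, in 64.8% on day 16 and in 61.2% in the fat pad, against 52 of 54 (96.3%, 87.3 to 99.5) in 4T1 culture. The 3 bone shares and the fat pad share lay within each other's intervals. Among the wells at 20 CPM or more, the median was 103, 104 and 272 CPM on days 4, 10 and 16, 176 CPM in the fat pad and 148 CPM in culture. On day 16 the deepest library of the study, with 34104400 counts, held 18.4% of the counts of Plau and 23.5% of those of Plaur. Without it Plau was 283 CPM and Plaur 384 CPM, and the unweighted mean over the 71 wells was 257 CPM for Plau.

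Plaur, the urokinase receptor, was at a similar level in all bone samples and lowest in the fat pad. In 4T1.2 it was 546 CPM in bone and 603 CPM in culture. The 4T1 levels were 441, 559 and 428 CPM in bone on days 4, 10 and 16, 123 CPM in the fat pad and 266 CPM in culture. At least 20 CPM was reached in between 96.3% and 98.6% of tumour wells in every group except the fat pad, where it was 59 of 85 (69.4%, 58.5 to 79.0). In the fat pad the quartiles over wells were 8.63 and 148 CPM, against 153 and 378 CPM in 4T1 culture, so these ranges of the 2 groups did not overlap. Tumour wells of bone also held counts of 8 neutrophil genes, which summed to between 1843 and 4103 CPM in the 4 bone groups, against 96.6 CPM in the fat pad, 178 CPM in cultured 4T1.2 cells and 9.04 CPM in cultured 4T1 cells. In the tumour wells with keratin and blood cell sums at least 10-fold apart, Plaur was 567 CPM in 4T1.2 bone and 439, 582 and 421 CPM in 4T1 bone on days 4, 10 and 16.

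Plat, the tissue-type activator, reached 20 CPM in a minority of wells in each group and was highest in the fat pad. There it was 89.9 CPM and reached 20 CPM in 34 of 85 wells (40.0%, 29.5 to 51.2), with a median of 137 CPM in those wells. In 4T1.2 bone and culture 8.51% and 20.8% of tumour wells reached 20 CPM, and in 4T1 bone 15.3%, 13.0% and 16.9% on days 4, 10 and 16, against 14.8% in 4T1 culture. Summed levels were 5.27 and 10.9 CPM in 4T1.2 bone and culture, and 12.5, 26.0 and 36.1 CPM in 4T1 bone on days 4, 10 and 16, against 6.76 CPM in 4T1 culture. The fat pad thus stood apart by share as well as by level. With each well thinned to 500000 counts, a count of Plat was found in 73.8% of fat pad wells, against 41.5% in 4T1.2 culture, the next highest, and between 17.3% and 30.2% in the other groups. The median fat pad well held only 2.35 CPM, near 1 count at that depth, so this share includes wells with few counts.

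The higher sums of Plat on days 10 and 16 rested on a pair of wells with low keratin and low blood cell sums. On day 10 a well with 588 CPM held 56.4% of all Plat counts; its Krt8 and Krt18 summed to 53.0 CPM and its blood cell genes to 19.5 CPM, while 6 endothelial genes, among them Pecam1 and Cdh5, summed to 3305 CPM. On day 16 a well with 1326 CPM held 56.2%; its keratins summed to 49.2 CPM and its blood cell genes to 32.4 CPM, while 6 stromal genes, among them Col1a1 and Col1a2, summed to 61272 CPM. Without these wells Plat was 11.6 CPM on day 10 and 16.1 CPM on day 16, beside 12.5 CPM on day 4, where no tumour well was of this kind. In all, 2 tumour and 7 host wells had endothelial or stromal sums above both sums that divide the wells. Another 7 tumour wells, 4 of 4T1.2 bone and 3 of 4T1 day 4, fell in the erythroid-like cluster. Erythroid markers summed to 1694 CPM in the tumour wells of 4T1.2 bone and to 407 CPM in those of 4T1 day 4.

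Serpine2, an inhibitor of both activators, set the lines apart. It was 246 CPM in 4T1.2 culture, with at least 20 CPM in 52 of 53 wells (98.1%, 89.9 to 100), and 24.3 CPM in 4T1 culture, with 11 of 54 (20.4%, 10.6 to 33.5). In bone on day 4 it was 99.0 CPM and 59.6% of wells in 4T1.2, against 13.0 CPM and 14.6% of wells in 4T1. On days 10 and 16 the 4T1 level was 10.1 and 50.6 CPM, and in the fat pad 56.1 CPM, with between 14.8% and 15.5% of wells at 20 CPM. The day 16 and fat pad sums were carried by few wells, since 2 wells held at least 50% of the counts in each of these groups. The stromal well of day 16 held 39.3% of the Serpine2 counts there, at 1297 CPM, and without it the level was 31.2 CPM; without the top well of the fat pad, at 1507 CPM and with keratins at 2547 CPM, it was 34.6 CPM.

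Serpinb2, an inhibitor of urokinase, had its highest summed level in cultured 4T1 cells. In 4T1.2 its level was 1.60 CPM in bone and 5.38 CPM in culture, and in 4T1 it was 0.09 and 0.25 CPM in bone on days 4 and 16, against 70.6 CPM in culture. No count was found in the 54 tumour wells of day 10 or in the 85 of the fat pad, which for the fat pad makes the level at least 5699-fold lower than in 4T1 culture, against a floor of 3 counts over the group. In 4T1.2 culture 6 of 53 wells (11.3%, 4.27 to 23.0) reached 20 CPM, and in 4T1 culture 10 of 54 (18.5%, 9.26 to 31.4). The median well held 0.71 CPM in both cultures. With each well thinned to 500000 counts, a count was found in 41.5% of 4T1.2 and 43.4% of 4T1 culture wells. In 4T1 culture 2 wells held at least 50% of the counts. Without the top well, at 1475 CPM, the level was 40.9 CPM. Of the 10 wells, 9 fell among the 28 cultured wells of a cluster led by Krt7, Krt19, Cdh1 and Krt14, and 1 among the 22 of a cluster led by Apol9a and Apol9b; clusters were made without the 7 genes. On day 4 all Serpinb2 counts came from 1 of 137 wells.

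Procr was highest in culture in both lines. In 4T1.2 it was 105 CPM in bone, against 445 CPM in culture. The 4T1 levels were 59.7, 78.9 and 54.1 CPM in bone on days 4, 10 and 16 and 35.4 CPM in the fat pad, against 176 CPM in culture. At least 20 CPM was found in 87.2% of tumour wells in 4T1.2 bone and in all 53 wells of its culture. In 4T1 it was found in 65.0%, 75.9% and 64.8% on days 4, 10 and 16 and in 37.6% (27.4 to 48.8) in the fat pad, against 94.4% (84.6 to 98.8) in culture. In the fat pad the median well held 1.33 CPM, although the median of the wells at 20 CPM or more was 71.5 CPM.

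Anxa2 was highest in 4T1 bone on days 4 and 10. In 4T1.2 it was 1594 CPM in bone and 1215 CPM in culture. The 4T1 levels were 3020, 2885 and 1654 CPM in bone on days 4, 10 and 16 and 1262 CPM in the fat pad, against 1876 CPM in culture. The quartiles over tumour wells were 2457 and 3583 CPM on day 4 and 2043 and 3652 CPM on day 10, against 1147 and 1994 CPM on day 16 and 842 and 1404 CPM in the fat pad. The lower quartile of day 4 thus lay above the upper quartiles of day 16 and of the fat pad. S100a10, its partner, had the same order of groups within 4T1 animals, with 1840, 1608 and 1459 CPM in bone on days 4, 10 and 16 and 1079 CPM in the fat pad, and was 1293 CPM in 4T1 culture; it is named after its values were seen.

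**Figure D2:**
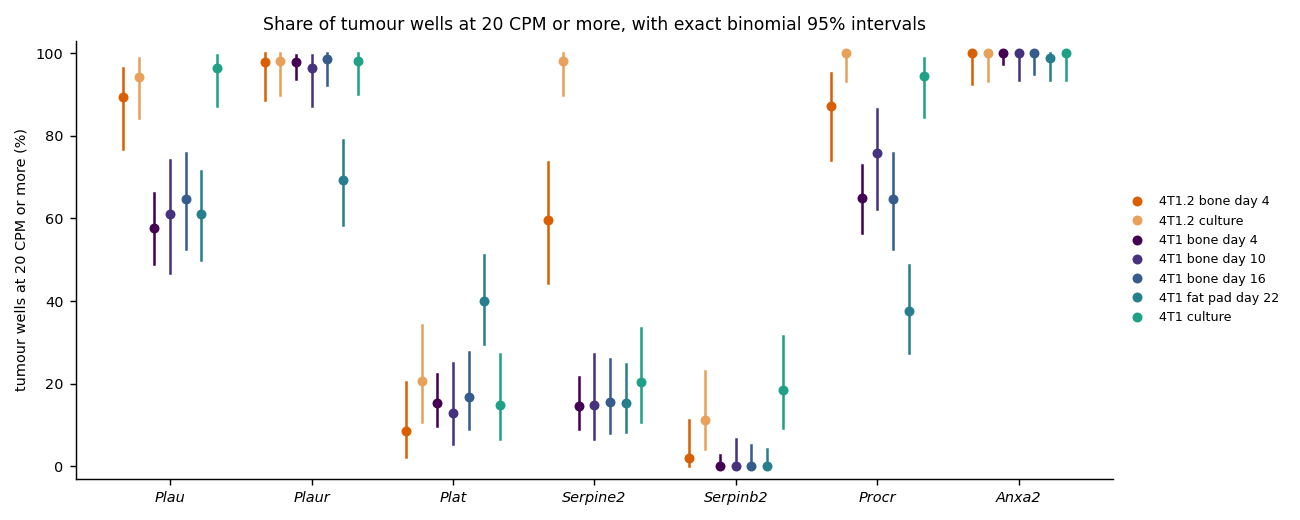
Share of tumour wells at 20 CPM or more (y axis, %) for each gene (x axis) in the 7 groups. Points are shares and lines exact binomial 95% intervals, which treat wells as independent draws and cover no difference between animals or cultures. Serpine2 reached 98.1% in 4T1.2 culture against 20.4% in 4T1 culture, and Plat 40.0% in the fat pad against 14.8% in 4T1 culture.

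To set the groups side by side, log2 ratios of CPM plus 5 were taken for each gene, and a gene was counted where it differed at least 2-fold with 5 CPM or more in either group. The same counts over all measured genes give the background. Comparisons that use the same group, such as culture, share its wells.

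Between bone day 4 and culture, Procr was lower in bone in both lines. In 4T1, 3 of the 7 genes were counted (8.77% of all genes), none of them higher in bone (5.18%) and all 3 lower (3.60%): Plau with a log2 ratio of -1.14, Procr with -1.49 and Serpinb2 with -3.89. Plaur and Anxa2 had 0.72 and 0.69, below 2-fold. In 4T1.2, 2 of 7 were counted (9.32%), none higher (6.17%) and 2 lower (3.15%), Procr with -2.03 and Serpine2 with -1.27; Plau had -0.83, and -1.06 with marker sums at least 10-fold apart and -1.002 without the top wells, and Anxa2 had 0.39.

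Within 4T1 bone, none of the 6 genes at 5 CPM or more was counted between day 10 and day 4 (7.37% of all genes, 4.64% higher and 2.73% lower). On day 16 against day 4, 3 of the 6 were counted (19.4%), all higher (10.2%) and none lower (9.28%): Plau with 1.90, Serpine2 with 1.63 and Plat with 1.23. Anxa2 had -0.87. Without the 9 wells led by stromal or endothelial markers the ratio of Plat was 0.26, below 2-fold, and that of Serpine2 was 1.01. The alternative of named clusters takes as tumour the tumour-like clusters and also an unnamed cluster of 69 wells led by Cp, Mgp and Spp1. Where wells are divided in this way, Serpine2 came to 0.25, since a stromal host well of day 4, of the unnamed cluster, then counts as tumour. Plau stayed between 1.65 and 1.96 under all 11 alternatives. Against day 10, 2 of 6 were counted (12.7%): Plau with 1.36 and Serpine2 with 1.88 were higher on day 16 (7.14%) and none was lower (5.52%). Without the stromal well of day 16 and the endothelial well of day 10, Serpine2 had 1.23.

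Tumour cells of bone and of the fat pad differed most in the receptor and in Plat. On day 4, 5 of 6 genes were counted (18.0% of all genes). Plaur and Anxa2 were higher in bone, with log2 ratios of 1.81 and 1.26 (9.69% of all genes higher), and Plat, Serpine2 and Plau were lower, with -2.44, -1.76 and -1.25 (8.32% lower); with named clusters Serpine2 had -0.39. On day 16, 2 of 6 were counted (11.7%): Plaur was higher in bone, with 1.76 (7.48%), and Plat lower, with -1.21 (4.23%); Plau had 0.65 and Serpine2 -0.14. Without the stromal well of day 16 Plat had -2.17 and Serpine2 -0.76. Against 4T1 culture, 5 of 7 were counted (24.0%). Plat with 3.01 and Serpine2 with 1.06 were higher in the fat pad (10.7%), and Plaur with -1.08, Procr with -2.17 and Serpinb2 with -3.92 were lower (13.3%). The median of all genes was -0.14 in that comparison, and Plaur came to -0.91 with factors of the trimmed mean of M-values and to -0.90 with DESeq2 size factors, below 2-fold. Without the top well Serpine2 had 0.81, and with the mean of single wells 0.97. The fat pad wells were also taken on a later day than any bone wells, so site and day cannot be told apart.

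Between the lines, 4T1.2 carried more urokinase and more Serpine2. In culture, 5 of the 7 genes were counted (8.60% of all genes), 4 higher in 4T1.2 (3.62%) and 1 lower (4.98%). The log2 ratios were 3.09 for Serpine2, 2.54 for Plau, 1.31 for Procr, 1.17 for Plaur and -2.87 for Serpinb2. In bone on day 4, 2 of 6 were counted (9.26%): Plau with 2.85 and Serpine2 with 2.53 were higher in 4T1.2 (4.19%) and none was lower (5.07%), while Anxa2 had -0.92, and -1.05 with factors of the trimmed mean of M-values, and Plat had -0.77, and -1.11 with a pseudocount of 1 CPM. Plau was 7.62-fold higher in bone and 5.96-fold in culture, and Serpine2 7.62-fold and 10.1-fold. Serpine2 in bone came to 1.00, just below 2-fold, with named clusters, where the stromal host well of 4T1 day 4 counts as tumour. Blood cell genes summed to 315 CPM in tumour wells of 4T1.2 bone, against 79.1 CPM in those of 4T1 bone, and with marker sums at least 10-fold apart the log2 ratios in bone were 2.62 for Plau and 2.69 for Serpine2.

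Set against the host wells of the same samples, tumour wells were at least 2-fold higher in Anxa2 and Procr in the 4 bone samples but not in the fat pad, in Plat in the 4 samples of 4T1, and in Plaur in no sample. Differences of at least 2-fold covered 36.5% of all genes on 4T1 day 4, 43.1% on day 10, 41.8% on day 16, 53.5% in the fat pad and 36.6% on 4T1.2 day 4. In the same order 4 of 6, 3 of 6, 5 of 7, 3 of 6 and 4 of 6 genes at 5 CPM or more were counted, on a background that is high in each sample. All genes together had a median log2 ratio of 0.26 on 4T1 day 10, 0.22 on day 16 and 0.45 in the fat pad, and DESeq2 size factors brought it to -0.10, -0.07 and -0.12. Of the 4 on 4T1 day 4 all were higher (17.0%) and none lower (19.6%), on day 10 all 3 were higher (24.6%) and none lower (18.5%), and on 4T1.2 day 4 all 4 were higher (16.1%) and none lower (20.5%). On day 16, 4 were higher (23.9%) and 1 lower (17.9%), and in the fat pad 2 were higher (36.3%) and 1 lower (17.2%). Anxa2 was 3020, 2885 and 1654 CPM in tumour wells of 4T1 bone on days 4, 10 and 16, against 695, 864 and 700 CPM in host wells, and 1262 CPM against 938 CPM in the fat pad, where the log2 ratio of 0.43 came to 0.01 with factors of the trimmed mean of M-values and turned to -0.20 with DESeq2 size factors. The log2 ratio of Anxa2 on day 16 was 1.23, and 0.92 with DESeq2 size factors. Procr was 59.7, 78.9 and 54.1 CPM in tumour wells on days 4, 10 and 16, against 3.80, 24.1 and 5.10 CPM in host wells, but 35.4 CPM against 40.95 CPM in the fat pad, where 1 of the 10 host wells held 65.1% of the host counts. Without the well with most counts the host level was 0.86, 15.6 and 2.26 CPM in bone on days 4, 10 and 16, and in the fat pad it was 16.0 CPM, where the log2 ratio was -0.18 as reported and 0.84 without the top wells. In 4T1.2 bone the tumour wells held 105 CPM of Procr and the host wells 6.58 CPM, and with marker sums at least 10-fold apart 103 and 2.51 CPM. On 4T1 day 4, 1 host well of the macrophage-like cluster, with 970 CPM of Procr and 6 endothelial genes at 278 CPM, held 77.4% of the host counts.

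Plat was almost absent from host wells, at between 0.14 and 1.23 CPM in the 5 samples. A single well held 95.3% of the host counts in 4T1.2 bone, where the log2 ratio of Plat was 0.72, and 1.22 with marker sums at least 10-fold apart and 1.49 with a pseudocount of 1 CPM. On 4T1 day 10 the ratio was 2.59, but -0.59 where wells are divided by named clusters. Plau was counted as higher in tumour wells on day 4 in both lines. On 4T1 days 10 and 16 its log2 ratios of 0.91 and 0.997 lay just below 2-fold, and without the top wells they were 1.10 and 1.07. It was at 75.5, 112 and 296 CPM in 4T1 tumour wells on days 4, 10 and 16, against 24.8, 57.4 and 146 CPM in host wells, and at 575 CPM against 26.2 CPM in 4T1.2 bone. Of the 188 host wells of 4T1.2 bone, 8 fell in a tumour-like cluster. With marker sums at least 10-fold apart Plau there was 491 CPM in tumour and 11.1 CPM in host wells. In the fat pad it was 187 CPM in tumour wells and 345 CPM in the 10 host wells, of which 1 held 76.4% of the counts; without that well the host level was 93.3 CPM. The log2 ratio of Plau there was -0.87, beside -1.28 with factors of the trimmed mean of M-values, -1.49 with DESeq2 size factors and 0.83 without the top wells. Plaur was 441, 559 and 428 CPM in tumour wells on days 4, 10 and 16, against 663, 848 and 634 CPM in host wells, and 123 CPM against 502 CPM in the fat pad, a log2 ratio of -1.99 in the fat pad. In 4T1.2 bone it was 546 CPM in tumour and 465 CPM in host wells.

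Among host wells, Serpine2 on 4T1 day 4 and Serpinb2 on day 16 rested largely on single wells. On 4T1 day 4 Serpine2 was 13.0 CPM in tumour and 21.0 CPM in host wells, but 1 host well at 2806 CPM held 60.3% of the host counts, and its stromal genes summed to 252907 CPM. Without it the host level was 8.38 CPM. In the other bone samples the top well held less of the host counts of Serpine2. Its share was 30.0% on day 10, 34.4% on day 16 and 21.0% in 4T1.2 bone, where 26 of 188 host wells reached 20 CPM. The log2 ratio of Serpine2 in tumour against host wells was -0.53 on 4T1 day 4, and 0.25 without the top wells. It was -0.54 on day 10. Serpine2 was counted as higher in tumour wells on day 16 with 1.69, in the fat pad with 3.44 and in 4T1.2 bone with 2.33. Without the stromal well of day 16 its ratio there was 1.07. On day 16 Serpinb2 was 0.25 CPM in tumour and 19.7 CPM in host wells, with 99.3% of the host counts in 1 macrophage-like well at 1903 CPM; without it the host level was 0.13 CPM.

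**Figure D3:**
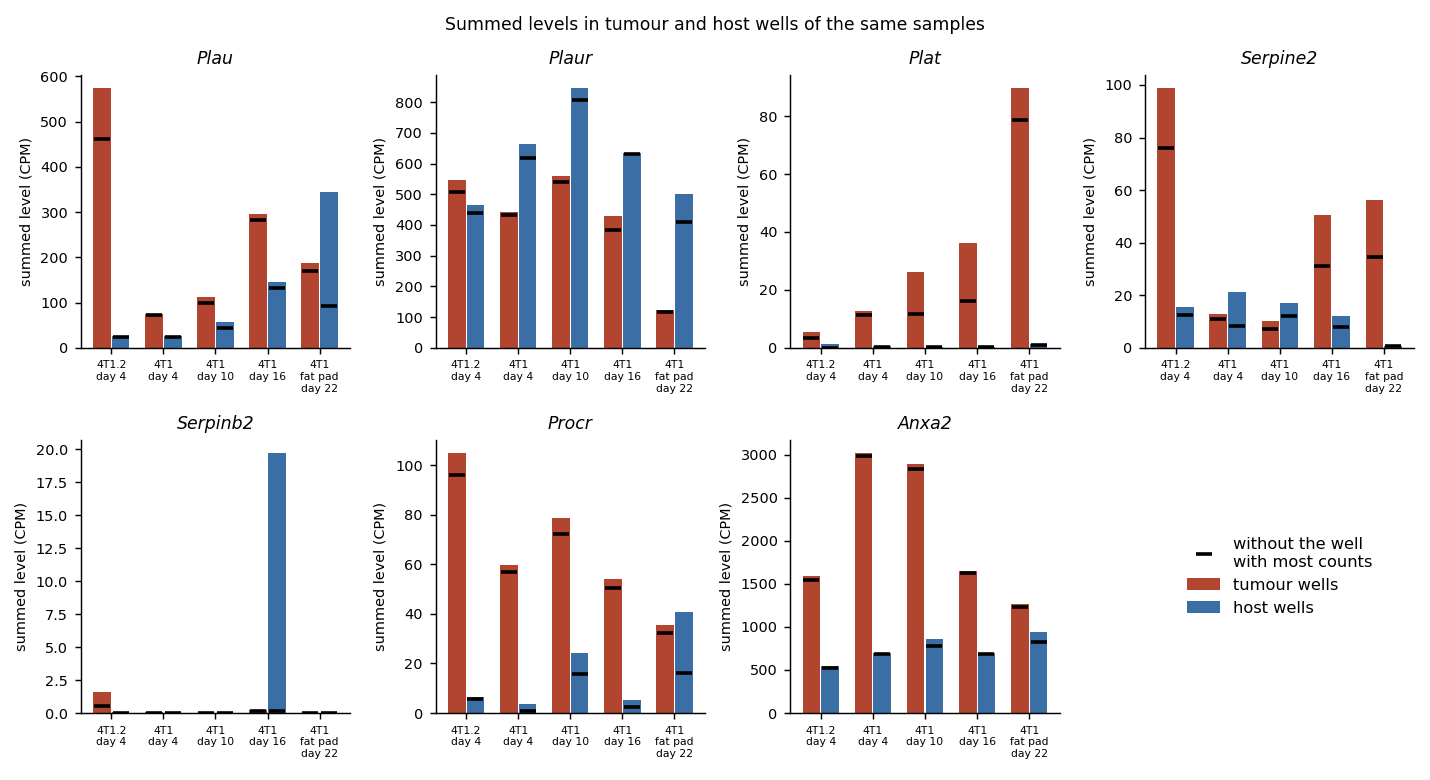
Summed level (y axis, CPM) of each gene in tumour and host wells (bars) of the 5 samples from animals (x axis); black marks give the level without the well with most counts of the gene. Plaur was higher in host than in tumour wells in the 4 samples of 4T1, whereas the summed CPM of Anxa2 was higher in tumour wells in all 5, in the fat pad with a direction that turned with DESeq2 size factors.

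Host cell types were named from clusters of all wells, made without the 7 genes, from fixed markers, and their levels are descriptions. Plaur was highest in neutrophil-like wells, which were 174 in number, with a median of 1049 CPM and 20 CPM or more in 98.9% of wells. The neutrophil-like cluster led by Retnlg and Mmp8 held 1501 CPM, and that led by Ngp, Camp and Ltf 1010 CPM. Plaur was 1022 CPM in 20 plasmacytoid dendritic-like wells, 890 CPM in the monocyte-like cluster led by Prtn3 and Ccr2 and 484 CPM in the macrophage-like cluster led by Apoe and C1q genes. It was low in B cell-like wells, with median wells at 9.06 and 7.37 CPM in the clusters led by Igll1 and by Ighm. The B cell-like cluster led by Igkc held 576 CPM of Plaur together with S100a9 at 13138 CPM, against 245 CPM of S100a9 in the Ighm-led cluster.

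Among host clusters the level of Plau was highest in macrophage-like wells, but on day 4 many host wells with Plau lay outside them. The 102 wells of the C1q cluster held 223 CPM, with 20 CPM or more in 62 (60.8%), against 11.8 CPM in the monocyte-like cluster and 46.2 CPM in neutrophil-like wells. Its level in the C1q cluster was 188, 137 and 240 CPM on days 4, 10 and 16, and the cluster made up 14 of 359, 17 of 41 and 60 of 119 host wells on those days, beside host sums of 24.8, 57.4 and 146 CPM. All 10 host wells of the fat pad belonged to it, and 1 of the 188 host wells of 4T1.2 bone. At least 20 CPM of Plau was found in 54 host wells of 4T1 day 4 and in 28 of 4T1.2 bone. In B cell-like wells 7.20% reached 20 CPM, and in plasmacytoid dendritic-like wells none of 20.

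**Figure D4:**
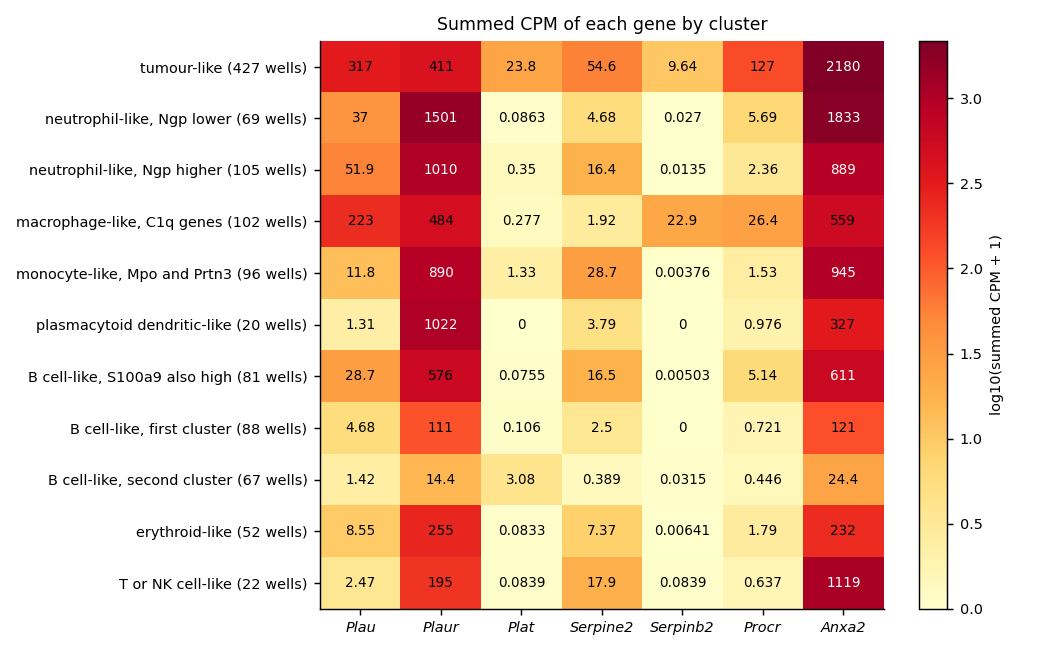
Summed level in CPM, written in the cells and shaded as log10 of CPM + 1, of each gene (x axis) in tumour-like wells and in 10 host clusters (y axis), over all groups. The tumour-like row holds 427 tumour wells and leaves out the 66 of the unnamed cluster, among them 42 of the 71 of 4T1 day 16. Plaur was highest in a neutrophil-like cluster, at 1501 CPM, and among host clusters Plau was highest in the macrophage-like wells with C1q genes, at 223 CPM.

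Urokinase and its receptor were found together in most wells of culture and of 4T1.2. At least 20 CPM of both was found in 89.4% and 94.3% of tumour wells of 4T1.2 bone and culture. Among 4T1 wells both were found in 56.2%, 61.1% and 64.8% in bone on days 4, 10 and 16 and in 47.1% in the fat pad, against 94.4% in culture. Receptor without urokinase was found in 41.6%, 35.2% and 33.8% on days 4, 10 and 16, against 3.70% in 4T1 culture. Outside the fat pad Plaur reached 20 CPM in at least 96.3% of tumour wells, so these shares largely restate those of Plau.

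From well to well, Plau and Plaur varied together in 4T1.2 and little in 4T1 bone. Spearman's rho across tumour wells was 0.58 over 47 wells of 4T1.2 bone and 0.69 over 53 of 4T1.2 culture. In 4T1, rho was 0.03, 0.12 and -0.12 in bone on days 4, 10 and 16, over 137, 54 and 71 wells, and 0.36 in the fat pad, against 0.38 in culture. Plau and Procr had 0.54 and 0.45 in 4T1.2 bone and culture, and Plaur and Procr 0.37 and 0.40, with 0.40 in 4T1 culture. Plau and Serpine2 had 0.35 in 4T1.2 culture and -0.33 in 4T1 culture. The wells of a group share their sample and differ in depth, and these values are descriptions.

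**Figure D5:**
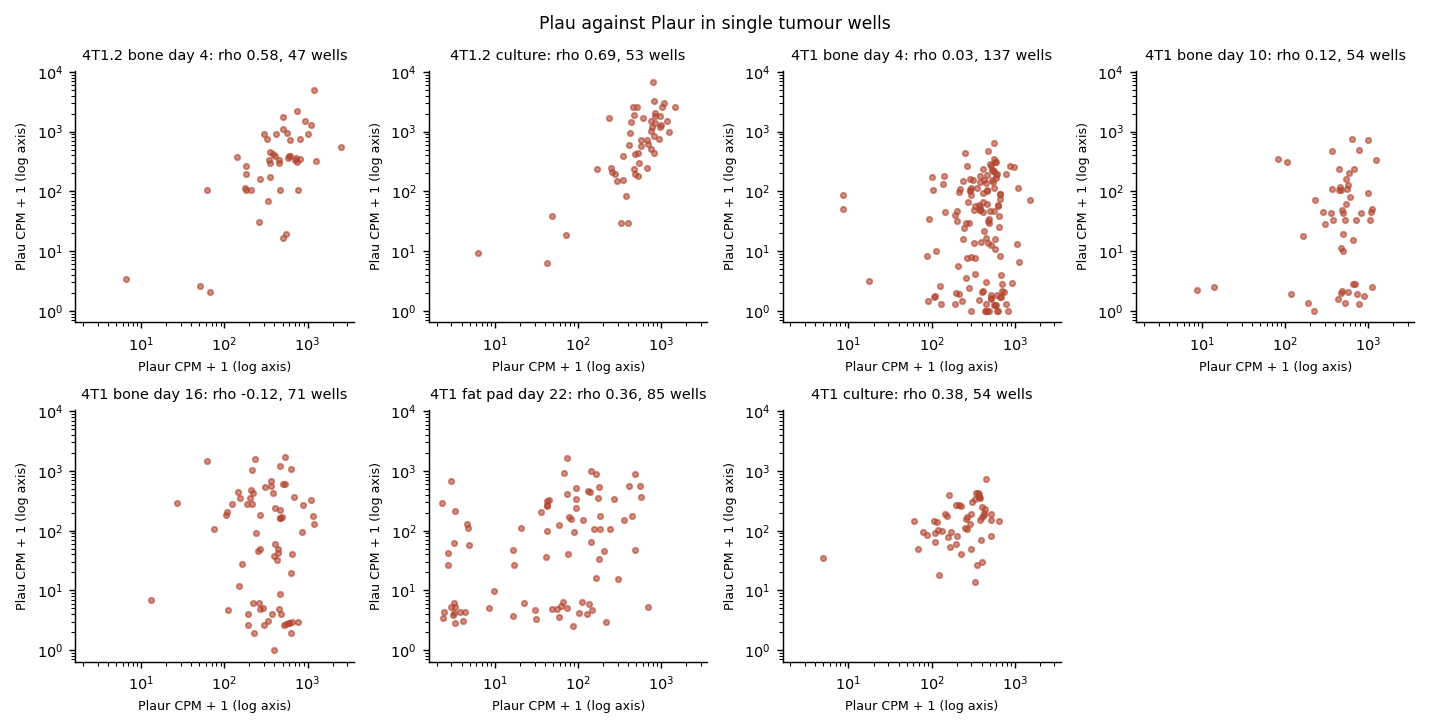
Plau against Plaur in single tumour wells, both as CPM + 1 on log axes, in a panel for each group with Spearman's rho and the number of wells. The points form a rising band in 4T1.2 culture (rho 0.69), whereas in 4T1 bone day 4 the ranks of Plau and Plaur were nearly unrelated (rho 0.03).

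Among 9820 genes compared in tumour wells, the mean of rho over the 7 groups was highest for Plau with Mmp3, a matrix metalloproteinase (0.42), Krt7 (0.40) and Krt18 (0.37), of which Krt18 is also used to call a well tumour. For Plaur the genes were Tnfrsf12a, a receptor of the TNF family (0.40), Gm4610 (0.38) and Gprc5a (0.36). For Procr only Gprc5a reached 0.3 (0.35), and for Anxa2 the genes were Actb, the cytoplasmic actin (0.45), Pkm, a glycolytic enzyme (0.43), and S100a4, a calcium-binding protein (0.42). No gene reached a mean of 0.3 with Plat, Serpine2 or Serpinb2.

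Plasminogen (Plg) was at most 0.25 CPM in the tumour or host wells of any sample, and vitronectin (Vtn), a matrix ligand of Plaur, at most 0.07 CPM; both are named after their values were seen. Of 21 further genes of the plasminogen system, 12 were measured between 4T1 bone day 4 and culture, of which 3 were at least 2-fold higher in bone (5.18% of all genes) and none lower (3.60%). On day 16 against day 4, 5 of 13 were higher (10.2%) and none lower (9.28%), and 4 of 13 were higher without the stromal well. Lrp1, the receptor that clears complexes of activator and inhibitor, was 52.5, 101 and 180 CPM in tumour wells of 4T1 bone on days 4, 10 and 16, against 18.3 CPM in 4T1 culture; host wells of those days held 36.0, 167 and 219 CPM. Itgb5, an integrin subunit, was 24.7, 48.1 and 95.4 CPM in tumour wells on those days, against 12.0, 64.1 and 99.5 CPM in host wells. Itgb2, an integrin subunit of leukocytes, was 20.8, 47.3 and 86.0 CPM in tumour wells on those days, against 582, 1054 and 849 CPM in host wells. Monocyte and macrophage markers summed to 242, 770 and 707 CPM in the tumour wells of those days, and their part in these levels was not tested.

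Of 13 other serpins, 7 were measured between the cultures; none was higher in 4T1.2 (3.62% of all genes) and 4 were lower (4.98%), with a median log2 ratio of -1.26 beside -0.01 over all genes. Serpinb5 (maspin) was 0.22 CPM in 4T1.2 culture and 36.4 CPM in 4T1 culture, and had no count in tumour wells of 4T1.2 bone. Of 13 genes of protein C and clotting, 5 of 7 were higher in 4T1 bone on day 10 than on day 4 (4.64% of all genes) and none lower (2.73%), with a median of 1.62 beside -0.12 over all genes. They included F13a1, a clotting factor subunit, at 84.2 CPM against 7.11 CPM, and Pros1, the protein S gene, at 51.2 CPM against 6.99 CPM. F13a1 was 235 CPM in host wells of day 10 and 194 CPM in those of day 4, and monocyte and macrophage markers summed to 770 CPM in tumour wells of day 10 against 242 CPM on day 4; their part in the clotting genes was not tested. Endothelial markers summed to 85.0 CPM in tumour wells of day 10 against 2.53 CPM on day 4, and without the endothelial well 5 of 7 were again higher, with a median of 1.49. Tfpi, an inhibitor of tissue factor, was 48.7 and 53.9 CPM in 4T1.2 bone and culture, against 4.23 and 1.36 CPM in 4T1 bone on day 4 and 4T1 culture. Of 9 other annexins, none was higher (3.62% of all genes) and 3 were lower (4.98%) in 4T1.2 than in 4T1 culture, with a median of -0.14.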

How the data were processed

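Single-cell libraries of 1248 wells were analysed from a table of raw read counts per gene deposited by the authors. The submitters' processing notes name STAR 2.6.0c and featureCounts 1.6.2, beside FastQC, Trim Galore, SAMtools, R and Seurat, and the mm10 build. Per the labels' protocols, amplified wells with an mCherry Ct above 30 were discarded before sequencing. The 78 spike-ins (0.67% of counts), both reporters (0.19%) and 4 repeated symbols (0.01%) were left out of totals. No pair of wells held identical values, and doublets were not called.

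CPM used each well's gene total, and group levels used summed counts. Clusters came from scanpy 1.11.5 (2000 variable genes without the 7, 20 components, 15 neighbours, resolution 1), 17 in all. A cluster was named for a type with at least 3 markers whose median reached 50 CPM and whose mean log2 level was at least 1 above that of the other wells; for host types, at least 1 marker also had to be among the 10 leading genes. Nearest genes were the 3 with the highest mean rho, named from 0.3, among genes with a count in 30% of tumour wells of every group. Genes of the lists were named from the 4 furthest apart in each direction of a comparison. Alternatives used edgeR 4.0.16 and DESeq2 1.42.0 scaling factors only. The ratio calculation was tried on simulated counts with folds planted in genes of 20 CPM or more. Those counts varied around a common mean per gene in each group, so genes carried by few wells were not covered. The 7 genes and all lists were chosen with earlier results of these data known. One gene of the plasminogen list is counted in its totals but not reported here. Promoter sequences are from RefSeq and positions from GENCODE M21.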

Additional observations from a re-analysis of the deposited data

How the results depend on the processing

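The 105 ratios of the 7 genes in 15 comparisons were recomputed under 11 alternatives, of which 2 were chosen after seeing the data (without the well with most counts of a gene, and without wells led by stromal or endothelial markers). Of 1155 values, 1109 kept their direction and their side of 2-fold, 11 came below it and 15 came above it. One alternative, no minimum level, does not enter the ratio, so its 105 values could not change. Requiring marker sums 10-fold apart removed no well of culture or of the fat pad, so ratios between those groups could not change under it either. Of 18 that changed sign, 3 were at least 2-fold on a side and 15, in 10 results, were below 2-fold on both; 2 more of Serpinb2 came to 0. With wells divided by named clusters, Serpine2 in tumour against host wells of 4T1 day 4 came to 1.80, and the same ratio of Plat on day 10 came to -0.59, since the wells with most counts changed sides. Without the top well, Serpinb2 in tumour against host wells of day 16 came to 0.0072. Counts of genes kept within 1.5 times in 163 of 165 cases; with named clusters 1 gene was counted on day 10 against day 4 (none as reported) and 1 in 4T1.2 against 4T1 bone day 4 (2 as reported). The other changed calls stand beside their results or here. With named clusters Plat on day 16 against day 10 came to 1.30 (0.41 as reported), Serpine2 on day 10 against day 4 to -1.60 (-0.25) and, below 2-fold, Serpine2 in 4T1 bone day 4 against culture to 0.67 (-0.71). Without the wells led by stromal or endothelial markers Plat on day 10 against day 4 came to -0.08 (0.82). With a pseudocount of 1 CPM Serpinb2 in 4T1.2 bone against culture came to -1.29 (-0.65), and Plau in tumour against host wells of day 16 to 1.02 (0.997); without wells under 500000 counts that ratio was also just past 2-fold. Plat on day 16 against day 4 was also below 2-fold with marker sums 10-fold apart (0.47) and without its top well (0.38). Single-sample groups give no error between animals. No paired analysis was possible because the numbers of the wells only name them and no result comes from a test.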
